A study of Mus musculus with 28 samples.

Results

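Eosinophils are granulocytes of type 2 immunity, and 6 genes of the pathway that makes, calls and arms them were followed in scaffold implants of mice with and without tumors. Ccl11 and Ccl24 encode eotaxins, chemokines that attract eosinophils, and Ccr3 encodes the receptor that binds both. Il5 encodes the cytokine interleukin 5, Il5ra encodes the alpha chain of its receptor, and Prg2 encodes major basic protein, a main protein of the eosinophil granule. All assays that carry one of these symbols were taken, which were 7 of 648 assays and 6 of 584 genes, because Ccr3 has 2 assays, and all 6 symbols are the current ones.

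Eosinophils mature in the bone marrow under interleukin 5 and enter tissue along eotaxin gradients, which they sense through CCR3. In mouse tissue, Ccl24 is made largely by macrophages, and Ccl11 by fibroblasts and other stromal cells. Basophils and some mast cells and T cells also carry CCR3, and Prg2 is transcribed mainly while granules are being filled, in eosinophil precursors. In implants and wounds, eosinophils are known as part of the type 2 response around foreign material, and in tumors as cells with roles that differ between settings.

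The samples were porous scaffolds of the polyester polycaprolactone (PCL), which fill with host tissue after implantation and are called a synthetic niche in the labels, from 28 female BALB/c mice. Of these, 14 mice bore tumors of 4T1-luc2-tdTomato cells, a mouse mammary carcinoma line marked with luciferase and a red fluorescent protein, and 14 were healthy. Scaffolds were taken 7, 14 and 21 days after inoculation or at the matched time, from 3, 8 and 3 tumor-bearing mice and from 3, 8 and 3 healthy mice, so all healthy mice carried a scaffold too. The labels list the tumor line for the healthy mice as well, and the groups follow the condition at the time of analysis. Each sample is a whole infiltrate, so fewer cells of a type and less RNA per cell cannot be told apart.

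Transcripts were measured by quantitative PCR after reverse transcription on an array of TaqMan assays for inflammation genes. The raw value is the quantification cycle (Cq), the cycle at which the signal of a reaction crosses its threshold, and it falls as template increases. The value used below is the log2 relative quantity, the log2 of the authors' normalized ratio, which rises by 1 when the quantity doubles. Between 475 and 587 assays gave a Cq in a sample, with a median of 573. The lowest counts, 475 and 489, belong to day 14 healthy replicate 13 and day 14 tumor-bearing replicate 21, both run on the same array panel, and the other samples had at least 535. Transcripts of the labelled cell kinds were present: the leukocyte genes Ptprc and Itgb2 gave a Cq in 27 and 28 samples and the fibronectin gene Fn1 in 28. The epithelial keratin gene Krt8 gave one in 23.

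The members fell into those measured early in every mouse and those near the limit of the assay, as the plot of raw Cq shows. The median raw Cq over all mice was 19.5 for Ccl11 (18.7 to 20.4) and 21.5 for Ccl24 (20.4 to 22.7). Ccr3 crossed the threshold at a median of 22.9 cycles in its first assay and 22.8 in its second. Il5 had a median of 29.9 cycles among the 17 mice with a value, and 16 of these values lay above 28 cycles. For Il5ra the median was 29.0 cycles, with 18 of 25 values above 28, and for Prg2 it was 27.7 cycles, with 10 of 24 values above 28. Cycles of different assays are given to show how well each was measured and do not rank the transcripts by abundance. Of the 196 reactions for these genes, 19 gave no Cq, and 18 of them were reactions for Il5, Il5ra or Prg2.

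**Figure D1:**
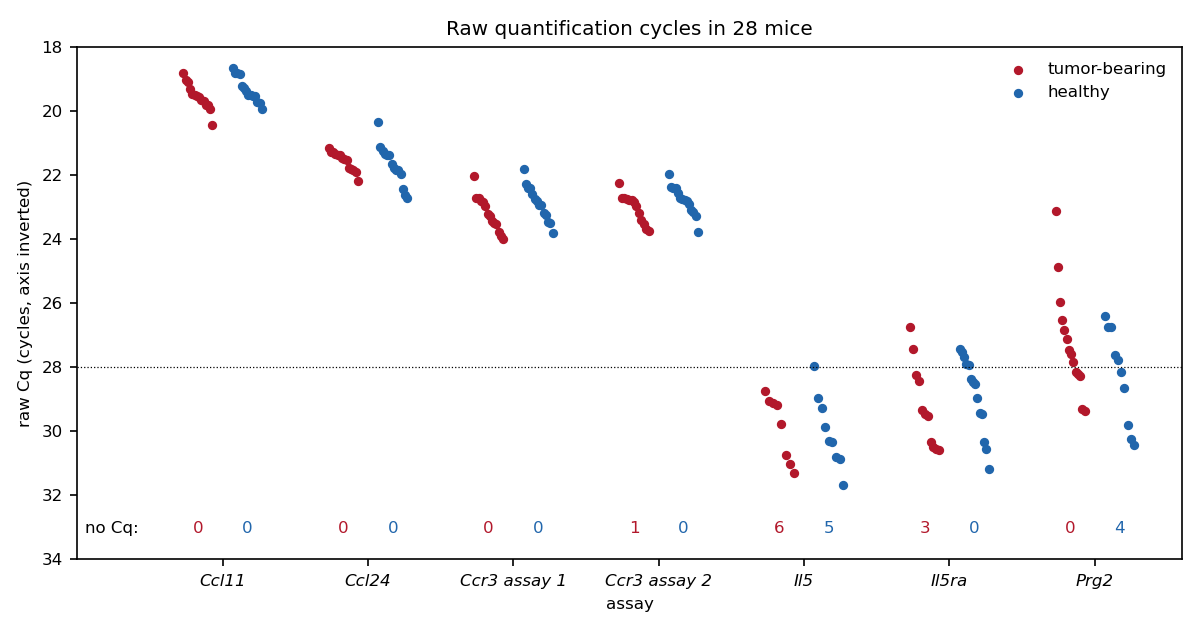
Raw quantification cycle of each assay in every mouse, tumor-bearing left of healthy within each assay and sorted within a condition; the axis is inverted so that more template is higher. The dotted line marks 28 cycles, and the row at the bottom counts reactions without a Cq; the eotaxin and Ccr3 assays all lie above the line, and Il5 has 1 point on it and the rest below.

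The question put to these genes is whether tumor growth elsewhere in the body changed them in the implant, and when. No member passed the test at any day or over the days together. The limma model gave adjusted p-values of 0.997 for each member tested at day 7, 0.298 to 0.983 at day 14 and 0.495 to 0.995 at day 21. For the mean of the 3 days they were 0.632 to 0.933 in limma. Il5 had too few values at day 7 and was not tested there or for the mean of the 3 days. An adjusted p under 0.05, after Benjamini-Hochberg adjustment over all assays tested, counts as passing. In the same comparisons 0 of 565 assays (0.0%) passed at day 7, where 12 (2.12%) had an unadjusted p under 0.05, and 14 of 588 (2.38%) passed at day 14. At day 21, 7 of 573 (1.22%) passed, and 14 of 559 (2.5%) passed for the mean of the 3 days. The estimates therefore serve as sizes with intervals, and a p that misses the threshold does not show that the conditions were alike. Values after ± are standard errors for differences and standard deviations for group means.

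**Figure D2:**
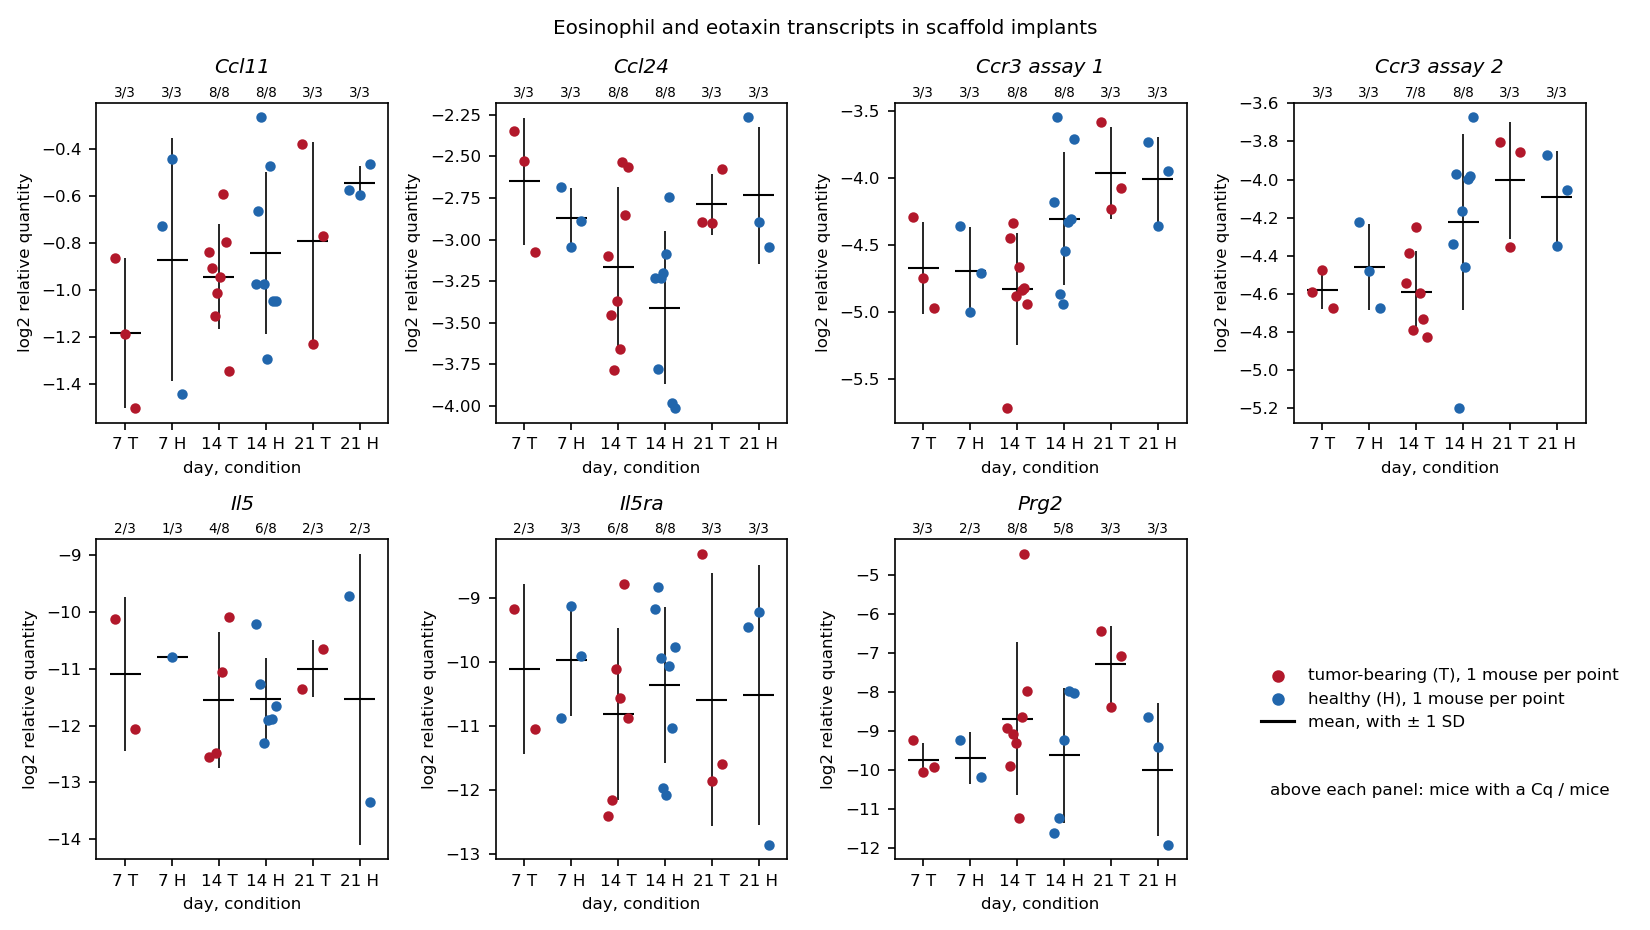
Log2 relative quantity of each assay in every mouse by day and condition, with tumor-bearing (T) left of healthy (H) at each day; each point is 1 mouse, the horizontal bar is the mean and the vertical line spans 1 SD either way. The fractions above each plot give mice with a Cq over all mice; the Prg2 points of day 21 tumor-bearing mice lie above those of day 21 healthy mice, and the other assays overlap between conditions at each day.

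Among the ligands, Ccl11 varied least of all members, with an SD of 0.33 over the 28 mice. At day 7 its log2 relative quantity was -0.86, -1.19 and -1.50 in the tumor-bearing mice and -0.73, -0.44 and -1.44 in the healthy mice. At day 14 it ran from -1.34 through a median of -0.92 to -0.59 in tumor-bearing mice and from -1.29 through -0.97 to -0.26 in healthy mice. At day 21 it was -0.38, -1.23 and -0.77 in tumor-bearing mice and -0.57, -0.59 and -0.46 in healthy mice. The conditions overlapped at every day, and the day 21 healthy mice were the tightest group, with an SD of 0.07. The tumor-bearing minus healthy difference in Ccl11 was -0.31 ± 0.26 (day 7), -0.09 ± 0.17 (day 14) and -0.25 ± 0.26 (day 21) (limma, adjusted p = 0.997, 0.891 and 0.923).

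For the mean of the days the Ccl11 difference was -0.22 ± 0.13 (limma, adjusted p = 0.693), with a 95% interval of -0.49 to 0.06, or 0.711-fold to 1.04-fold on the linear scale. This interval is the narrowest among the members together with that of the second Ccr3 assay. Mice of both conditions that shared a day and an array panel can be set against each other directly, and Ccl11 was lower in the tumor-bearing mouse in 7 of 10 such pairs, in 3 of 3 at day 7 and in 2 of 4 at day 14. The sign at day 14 was not stable, since the mean of those 4 pairs was 0.0468. By group mean, Ccl11 was highest in day 21 healthy mice (-0.54 ± 0.07, n = 3) and lowest in day 7 tumor-bearing mice (-1.18 ± 0.32, n = 3). No neighbours in the order of the 6 groups lay further apart than the larger of their SDs.

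Ccl24 had its lowest group means at day 14 in both conditions. Its log2 relative quantity was -2.35, -2.53 and -3.08 in day 7 tumor-bearing mice and -2.68, -3.04 and -2.89 in day 7 healthy mice. At day 14 it ran from -3.78 through -3.23 to -2.53 in tumor-bearing mice and from -4.01 through -3.23 to -2.74 in healthy mice. At day 21 it was -2.89, -2.90 and -2.58 in tumor-bearing mice and -2.26, -2.90 and -3.04 in healthy mice. Those day 14 means were -3.16 ± 0.48 in tumor-bearing and -3.41 ± 0.46 in healthy mice (n = 8 each), and no neighbours in the order of the 6 groups lay further apart than the larger SD.

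The changes in time did not pass the test either. Of all assays, 0.175% and 0.0% passed in tumor-bearing mice between days 7 and 14 and between days 14 and 21, and 0.0% and 0.346% in healthy mice. In healthy mice Ccl24 differed by -0.54 ± 0.28 between day 14 and day 7 (limma, adjusted p = 0.436) and by 0.70 ± 0.28 between day 21 and day 14 (adjusted p = 0.203, unadjusted p = 0.0209). In the latter comparison 15.9% of all assays had an unadjusted p under 0.05. In tumor-bearing mice the same differences were -0.48 ± 0.28 (adjusted p = 0.671) and 0.37 ± 0.28 (adjusted p = 0.660, limma). Between conditions Ccl24 differed by 0.22 ± 0.33 at day 7, 0.28 ± 0.21 at day 14 and -0.05 ± 0.33 at day 21 (limma, adjusted p = 0.997, 0.678 and 0.995). The interval at day 14 spanned -0.17 to 0.72, and 3 of 4 panel-matched pairs of that day were higher in the tumor-bearing mouse.

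Ccr3, the receptor of both eotaxins, was the member with the smallest p-value at day 14, where it was lower in tumor-bearing mice on average. In the first assay the day 14 values ran from -5.72 through a median of -4.83 to -4.33 in tumor-bearing mice and from -4.94 through -4.32 to -3.55 in healthy mice. In the second assay they ran from -4.83 through -4.59 to -4.25 in 7 tumor-bearing mice and from -5.20 through -4.08 to -3.67 in 8 healthy mice. The conditions overlapped in both assays. In the second, 1 healthy mouse, replicate 9, lay below every tumor-bearing mouse, and 5 of the 8 healthy mice lay above every tumor-bearing mouse.

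The day 14 difference in Ccr3 was -0.53 ± 0.22 in the first assay, or 0.690-fold (95% interval 0.507 to 0.940), with an unadjusted p of 0.0206 and an adjusted p of 0.298 in limma. In the second assay it was -0.39 ± 0.18, or 0.762-fold (0.591 to 0.982), with an unadjusted p of 0.0365 and an adjusted p of 0.415 in limma. Neither passed, and 6.97% of all assays at day 14 were lower in tumor-bearing mice with an unadjusted p under 0.05. Among the panel-matched pairs, the tumor-bearing mouse was lower in 4 of 4 for the first assay, by a mean difference of -0.60, and in 3 of 3 for the second, by -0.67. Both assays read the same mice, so these counts are not independent, and no such count was made over all assays. Without day 14 healthy replicate 9, the low mouse named above, the second assay stood at -0.52 with an adjusted p of 0.0493 in limma, the only setting among those tried on the member differences in which one passed. The first assay stood at -0.42 (adjusted p = 0.42) without tumor-bearing replicate 15, its lowest value. The median difference of all assays at day 14 was -0.08.

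At the other days the conditions were close in Ccr3. The first assay gave -4.29, -4.75 and -4.97 in day 7 tumor-bearing mice and -4.36, -5.00 and -4.71 in day 7 healthy mice. At day 21 it gave -3.58, -4.23 and -4.07 in tumor-bearing mice and -3.73, -4.36 and -3.95 in healthy mice. The differences were 0.02 ± 0.34 at day 7 and 0.05 ± 0.34 at day 21 in the first assay, and -0.12 ± 0.26 and 0.09 ± 0.26 in the second. Whether the day 14 difference departs from those at the other days was tested as an interaction, and it did not pass. Day 21 minus day 14 gave 0.58 ± 0.40 in the first assay (limma, unadjusted p = 0.156, adjusted p = 0.866) and 0.48 ± 0.32 in the second (unadjusted p = 0.145, adjusted p = 0.846). Day 14 minus day 7 gave -0.56 ± 0.40 in the first assay (limma, unadjusted p = 0.176, adjusted p = 0.992) and -0.27 ± 0.32 in the second (unadjusted p = 0.404, adjusted p = 0.992). In these contrasts 0 of 571 and 0 of 564 assays (0.0% each) passed, so not passing does not set Ccr3 apart.

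Ccr3 had its highest group means at day 21 in both conditions and both assays. In tumor-bearing mice the first assay averaged -3.96 ± 0.34 (n = 3) at day 21, -4.83 ± 0.42 (n = 8) at day 14 and -4.67 ± 0.34 (n = 3) at day 7. All 3 day 21 tumor-bearing mice lay above all 8 day 14 tumor-bearing mice, a separation upwards that 3.6% of 583 assays showed; 7.55% of them were higher with an unadjusted p under 0.05. That difference was 0.87 ± 0.29 (limma, unadjusted p = 0.00557, adjusted p = 0.289), and in the second assay, where the groups overlapped, it was 0.59 ± 0.23 (unadjusted p = 0.0176, adjusted p = 0.289). In healthy mice the first assay averaged -4.01 ± 0.32 at day 21, -4.30 ± 0.50 at day 14 and -4.69 ± 0.32 at day 7, and day 21 exceeded day 7 by 0.67 ± 0.34 (limma, adjusted p = 0.508). The day 21 healthy mice all lay above the day 7 healthy mice in this assay, as 17.5% of 570 assays did, and the second assay overlapped (0.36 ± 0.27, adjusted p = 0.657).

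The pair of Ccr3 assays (Mm00515543_s1, the first, and Mm01216172_m1, the second) allows a check of one measurement against another on the same RNA. In the maker's naming, the first has its primers within one exon and can also amplify genomic DNA, and the RNA was treated with DNase per the labels' protocols. Over the 27 mice with both, the raw Cq of the second minus the first averaged -0.11 ± 0.37 (SD) and lay within 0.5 cycles in 23 mice. The largest gap, -1.17 cycles, was that of day 14 tumor-bearing replicate 15, which stood at -5.72 in the first assay and -4.55 in the second. After removal of the group means, the assays correlated with Pearson's r = 0.49 and Spearman's rho = 0.49 over 27 mice (permutation p = 0.00933 and 0.00981, adjusted p = 0.140 and 0.147 over 15 assay pairs). Without the 2 mice farthest from the median in the first assay, r was 0.56.

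**Figure D3:**
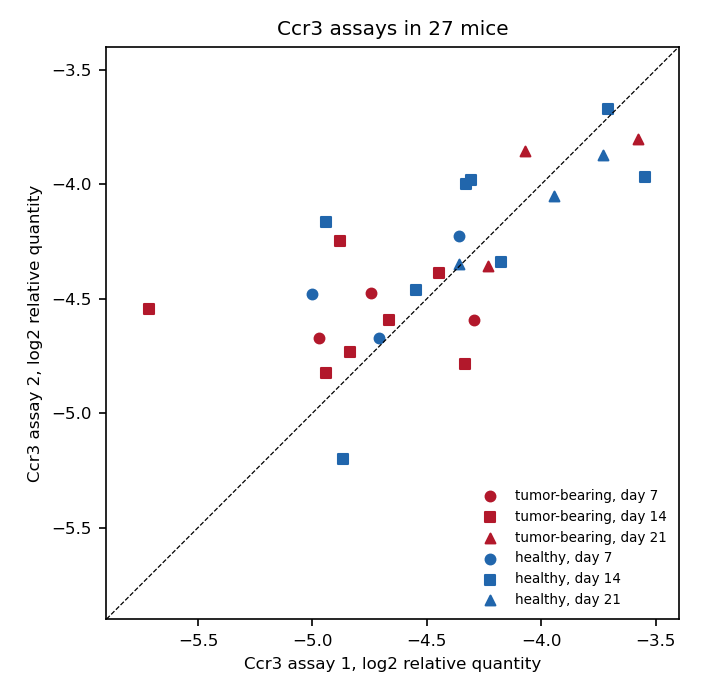
Log2 relative quantity of Ccr3 in its first assay (horizontal) and its second (vertical) for the 27 mice with both; colour gives the condition, shape the day, and the dashed line marks equal values. Most points lie near the line, and the day 21 mice lie toward the upper right, mixed with day 14 healthy mice. The point farthest from the line is the tumor-bearing mouse at -5.72 and -4.55.

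Il5 was close to the limit of detection in both conditions. A Cq was obtained in 8 of 14 tumor-bearing mice and 9 of 14 healthy mice (two-sided Fisher's exact test, p = 1), and at day 14 in 4 of 8 and 6 of 8 (p = 0.608). The values that were obtained at day 14 ran from -12.56 to -10.09 in tumor-bearing mice and from -12.31 to -10.22 in healthy mice, so the ranges nearly coincide. At day 21 they were -11.35 and -10.64 in tumor-bearing mice and -9.73 and -13.34 in healthy mice. The difference in Il5 was 0.05 ± 0.72 at day 14 (95% interval -1.52 to 1.61; limma, adjusted p = 0.983) and 0.47 ± 1.09 at day 21 (adjusted p = 0.995). Day 7 was not tested, with -10.13 and -12.06 in tumor-bearing mice against the single healthy value of -10.79. An interval this wide, from 0.350-fold to 3.05-fold at day 14, holds both a large fall and a large rise.

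Il5ra, the receptor chain that gives eosinophils and their precursors their response to interleukin 5, was found in 11 of 14 tumor-bearing and 14 of 14 healthy mice. This did not pass (two-sided Fisher's exact test, p = 0.222, adjusted p = 1), and 0 of 327 assays (0.0%) passed the same test, 1 of them with an unadjusted p under 0.05. Day 14 values ran from -12.42 through -10.72 to -8.77 in 6 tumor-bearing mice and from -12.08 through -10.00 to -8.83 in 8 healthy mice. At day 7 they were -9.16 and -11.04 in tumor-bearing mice and -10.88, -9.12 and -9.90 in healthy mice. At day 21 they were -8.30, -11.87 and -11.60 in tumor-bearing mice and -9.45, -9.22 and -12.86 in healthy mice. The conditions overlapped at each day, and within the day 21 groups the mice spread over more than 3 log2 units.

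The Il5ra estimates were -0.16 ± 1.21 (day 7), -0.38 ± 0.73 (day 14) and -0.08 ± 1.08 (day 21) (limma, adjusted p = 0.997, 0.891 and 0.995). Its sign at day 14 depended on the panels: the 4 panel-matched pairs had a mean of 0.66, with 2 higher and 2 lower in the tumor-bearing mouse. Without replicates 13 and 21, the mice with the fewest measured assays, it was -0.93 (limma, adjusted p = 0.753). Group means lay between -10.82 ± 1.35 (n = 6) in day 14 tumor-bearing mice and -9.96 ± 0.88 (n = 3) in day 7 healthy mice, less than the larger SD apart.

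Prg2 had the largest differences among the members. It gave a Cq in all 14 tumor-bearing mice and in 10 of 14 healthy mice (two-sided Fisher's exact test, p = 0.0978, adjusted p = 1). The 4 healthy mice without one were replicate 2 at day 7 and replicates 7, 9 and 11 at day 14. In the deposited table, replicates 2 and 11 are marked as undetermined and replicates 7 and 9 as not available, a mark that does not tell a failed reaction from no amplification. With a Cq of 28 or less counted as detected, the counts were 9 of 14 tumor-bearing and 5 of 14 healthy mice (two-sided Fisher's exact test, p = 0.257).

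At day 21 the log2 relative quantity of Prg2 was -6.43, -8.37 and -7.08 in tumor-bearing mice and -8.65, -9.41 and -11.90 in healthy mice. The groups did not overlap, with a gap of less than 0.3 between the nearest mice, and 10.3% of 573 assays were separated in this direction at that day. The difference was 2.69 ± 1.20, or 6.47-fold (95% interval 1.14 to 36.7), with an unadjusted p of 0.0363 and an adjusted p of 0.495 in limma. It did not pass, and 4.89% of all assays were higher at day 21 with an unadjusted p under 0.05. The authors' deposited table gives a fold change of 6.47 for it, which is the same difference of group means from the same values. As the groups did not overlap, each of the 3 panel-matched pairs was bound to be higher in the tumor-bearing mouse. Their differences ran from 1.04 to 4.82. Without day 21 healthy replicate 25, the lowest value, the estimate was 1.81 (adjusted p = 0.840).

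At day 14 Prg2 ran from -11.22 through a median of -9.00 to -4.46 in 8 tumor-bearing mice and from -11.60 through -9.24 to -7.97 in the 5 healthy mice with a value. The highest value, -4.46, belongs to tumor-bearing replicate 21, one of the samples with few measured assays, and the next tumor-bearing mouse stood at -7.96, level with the highest healthy mouse. The difference was 0.96 ± 0.87 (95% interval -0.85 to 2.77; limma, adjusted p = 0.702), and 0.31 without replicate 21. Both estimates leave out the healthy mice without a Cq, as 8 of 8 tumor-bearing but only 5 of 8 healthy mice gave one. If those healthy mice were low in Prg2, the estimates are too small. All 3 panel-matched pairs with values were higher in the tumor-bearing mouse. Over the days 7 of 8 were, of which the 3 of day 21 follow from the lack of overlap there. At day 7 Prg2 was -9.23, -10.05 and -9.92 in tumor-bearing mice and -9.22 and -10.17 in healthy mice, a difference of -0.07 ± 1.35 (adjusted p = 0.997, limma).

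For the mean of the days Prg2 differed by 1.20 ± 0.67 (limma, unadjusted p = 0.0882, adjusted p = 0.632). The interaction of day 21 minus day 7, 2.77 ± 1.81, did not pass (unadjusted p = 0.141, adjusted p = 1, limma), and 0 of 560 assays (0.0%) did. Within tumor-bearing mice, day 21 exceeded day 7 by 2.25 ± 1.22 (adjusted p = 0.617), and the groups did not overlap, as for 10.1% of 567 assays in that direction, while 0.529% of those 567 passed the test. In the order of group means, day 21 tumor-bearing mice came first, at -7.29 ± 0.99 (n = 3), and day 21 healthy mice last, at -9.99 ± 1.70 (n = 3), with no neighbours further apart than the larger SD.

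**Figure D4:**
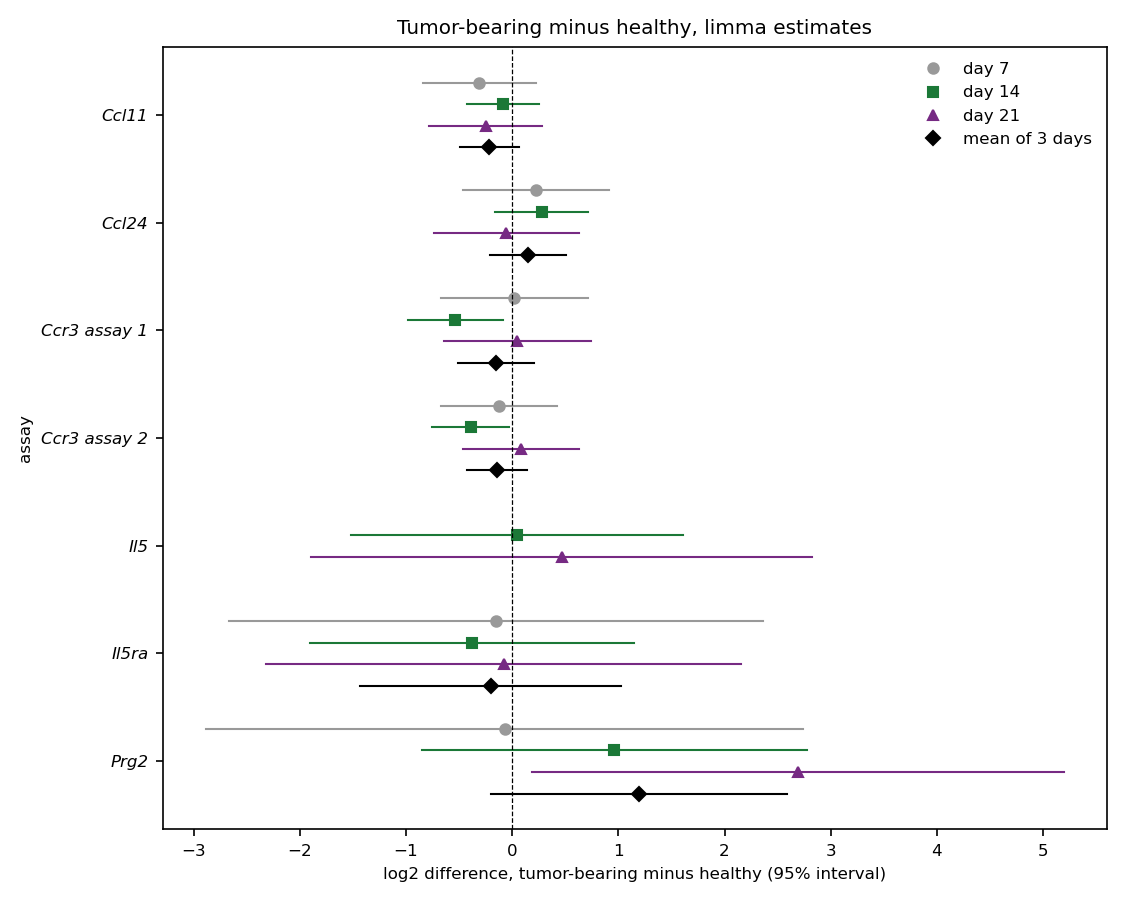
Tumor-bearing minus healthy log2 difference of each assay at day 7, day 14, day 21 and for the mean of the 3 days, with its 95% interval from the limma model. The dashed line marks no difference, and Il5 was not tested at day 7 or for the mean of the 3 days. The eotaxin and Ccr3 intervals are narrow and near 0, those of Il5, Il5ra and Prg2 are wide, and only the intervals of both Ccr3 assays at day 14 and of Prg2 at day 21 leave 0 out, before adjustment.

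Neutrophils are the granulocytes that 4T1 tumors are known to expand, and their markers passed the test where Prg2 did not. Of the 8 neutrophil genes measured (Camp, Ltf, Prtn3, Ela2, S100a8, S100a9, Il8rb and Fpr1), 8 rose at day 14 and 4 (Camp, Ltf, Prtn3 and Ela2) at day 21. Among all assays, 10 of 588 (1.7%) passed upwards at day 14 and 6 of 573 (1.05%) at day 21. The median difference over the list was 2.17 at day 14 and 1.76 at day 21, against -0.08 and -0.0013 for all assays. The summed relative quantity of their 9 assays was 8.04 to 14.8 in day 21 tumor-bearing mice and 3.00 to 4.79 in day 21 healthy mice. At day 14 it was 1.21 to 9.92 in tumor-bearing mice and 0.432 to 2.17 in healthy mice, with 9.92 in replicate 21, whose Prg2 was the highest at -4.46, and 9.86 in replicate 20, whose Prg2 was -8.64. Each of these markers gave a Cq in at least 20 of 28 mice, so none was at 0. In the linear sum the early assays weigh most: S100a8 (median Cq 19.6 and 18.6) and S100a9 (18.8), against 26.8 for Camp and 29.3 for Ela2. S100a8 and S100a9 did not pass at day 21, and missing reactions added nothing to the sum. Of all single assays, 10.3% were separated upwards between conditions at day 21. The part of the neutrophil markers in the Prg2 values was not tested. The 3 leukocyte genes measured did not pass in either direction, with a median difference of 0.04 at day 14 and 0.03 at day 21.

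The rest of the pathway gave 1 call between conditions. Besides Ccl11 and Ccl24, 5 genes were listed as ligands of CCR3, with no check that each acts on the mouse receptor. Of these, 4 (Ccl5, Ccl7, Ccl8 and Ccl28) could be tested. Ccl26 gave a Cq in only 1 mouse, at 17.8 cycles, and was not tested. Of these 4 genes, 0 passed at each day. For the mean of the 3 days, where 0.716% of 559 assays passed downwards, 1 fell and 0 rose. That gene was Ccl5, which encodes a chemokine of T cells, platelets and other leukocytes, with -0.71 ± 0.16 in one assay (limma, adjusted p = 0.0141) and -0.55 in its other (adjusted p = 0.186). The median of the list was 0.04 at day 14 and -0.07 for the mean of the days, against -0.08 and -0.05 for all assays.

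Interleukin 5 signals with a beta chain shared with the receptors for interleukin 3 and GM-CSF. Of the 11 genes listed for this family, 9 were on the array and 8 could be tested, and 0 passed in either direction at any day, with a median of -0.07 at day 14. The smallest p at day 14 was that of Lyn, a kinase that acts next to the receptor, at 0.22 ± 0.08 (limma, adjusted p = 0.243). The beta chain gene Csf2rb stood at -0.07 ± 0.14 at day 14 (adjusted p = 0.891), named after its value was seen. Among upstream type 2 genes, 8 could be tested at day 14 and 0 passed, with a median of -0.04. Il13ra2, a decoy receptor for interleukin 13, had the smallest p there, at -0.80 ± 0.32 (limma, adjusted p = 0.298).

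The cytokines beside Il5 were as hard to measure: Il4 gave a Cq in 5 mice, the assays for Il13 in 12 and 7, and Il9 in 0. Of 14 other genes linked to eosinophils, only Alox15 and Adora3 were on the array. Alox15, a lipoxygenase of eosinophils and alternatively activated macrophages, differed by 0.56 ± 0.52 at day 14 (limma, adjusted p = 0.723) and 0.45 ± 0.82 at day 21 (adjusted p = 0.9865). Adora3, an adenosine receptor gene, differed by -0.16 ± 0.23 at day 14 (limma, adjusted p = 0.841) and by 0.98 ± 0.39 at day 21 (adjusted p = 0.430, named after its value was seen). Neither passed. Of other cells that can carry CCR3, the mast cell and basophil genes measured, Kit and Fcer1a, did not pass, with differences of -1.25 ± 0.73 and -0.50 ± 0.45 at day 14 (limma, adjusted p = 0.585 and 0.702). The 3 T cell genes, 2 macrophage genes, Fn1 and Krt8 gave 0 calls at each day, and no endothelial marker of the list was on the array. The T cell genes had median differences of -0.62, -0.86 and -0.73 at days 7, 14 and 21, against 0.03, -0.08 and -0.0013 for all assays. The macrophage genes had medians of 0.16, 0.18 and 0.16, and Krt8 differed by 1.61, -3.64 and -1.85. The part of T cells in the Ccr3 values was not tested.

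Whether the members varied together between mice of a group was examined after removal of the group means, in 15 pairs of assays with at least 20 mice. None passed after adjustment. Beside the Ccr3 assays themselves, the strongest pairs were Il5ra with Prg2 (r = 0.45, rho = 0.42, n = 21; permutation p = 0.0414 and 0.0582, both adjusted over 15 pairs to 0.234 and 0.255) and the first Ccr3 assay with Il5ra (r = 0.40, rho = 0.43, n = 25; p = 0.0468 and 0.0356, adjusted p = 0.234 and 0.255). The relation of Il5ra and Prg2 stood at r = 0.36 without the 2 farthest mice and at 0.13 with panel means removed too. That of Ccr3 and Il5ra stood at 0.25 without the 2 farthest mice and 0.46 with panel means removed, and the second Ccr3 assay gave 0.06 with Il5ra. The order of the pairs depended on the panels. With panel means removed too, the largest r was that of Ccl11 with Prg2 (0.58, against 0.11 before, n = 24). Ccl24 with Prg2 followed (0.55, against 0.31, n = 24), then the Ccr3 assays (0.50), and these r values carry no test. The eotaxins gave r = 0.22 with each other (rho = 0.22, n = 28, adjusted p = 0.507 and 0.491). Ccl24 and Ccr3 gave -0.28 in the first assay (rho = -0.27, n = 28, adjusted p = 0.377 and 0.412).

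The genes with the most similar pattern over all mice differed between members, measured by Pearson's r over the samples with both values. These r values describe likeness only, share the day and condition means, and carry no test. Ccl11 was most like Ccl5 (0.79 over 27 mice), the interferon-induced chemokine gene Cxcl9 (0.73 over 28) and Il18bp, a binding protein of interleukin 18 (0.72 over 26). Ccl24 was most like Ccl6, a chemokine of myeloid cells (0.71 over 27), Prdx5, a peroxiredoxin (0.69 over 28), and the complement gene C1qa of macrophages (0.67 over 28). The first Ccr3 assay had Ryr1, Hc and Cmtm4 as its nearest (0.77, 0.73 and 0.72 over 27 mice each), and the second had Clu (0.75 over 26), Ccl19 (0.65 over 25) and Pla2g2d (0.64 over 27), so the assays shared no gene among their nearest 3.

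Il5ra was most like Ccr4, a chemokine receptor of type 2 T cells (0.59 over 25), Alox15 (0.57 over 25) and Serpina3c (0.55 over 24). Prg2 was most like Chi3l3, which encodes a chitinase-like protein of macrophages and granulocytes (0.69 over 24), and the neutrophil genes Ltf (0.68 over 23) and S100a8 (0.67 over 24). Il5 had too few values for this measure.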

How the data were processed

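Per the file headers, the authors deposited raw Cq (the score of each reaction), normalized ratios on a linear scale and a table of fold changes per day. The log2 of each deposited ratio is minus the raw Cq plus 1 shift per sample; the genes behind that shift are not reported here. The software that called the Cq is not given in the sources used here. Of 18144 reactions, 2244 (12.37%) had no Cq, written as Undetermined on 2 panels and NA on the others, and were left missing.

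The log2 ratios were fitted with limma 3.58.1 (R 4.3.3, statmod 1.5.0), with 1 mean per group over 28 samples, the array panel (7 panels, A to G) as a random block (correlation 0.054) and Benjamini-Hochberg adjustment within each contrast, at a threshold of 0.05. Tested assays had values in 50% or more of the samples in some group (609 assays) and 2 or more values in each group compared. Panels D and G each hold 1 condition of day 14; the others give 10 same-day pairs. The number of arrays and mice limits the precision. Detection was compared by Fisher's exact test and correlations by 100000 permutations (Python 3.11.15, scipy 1.17.1). The limma code was tested on simulated data. Per the labels, the samples are biological replicates.

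The members and gene lists were chosen with earlier results of these data known. All members are named; of each of the 4 pathway and eosinophil lists, the genes past the threshold or, where none passed, the smallest p at day 14 (cell type markers are given as counts); and the 3 assays most like each member over at least 20 samples. Alternatives were other treatments of panel, missing and late reactions, normalization, filter and day, panel-matched pairs, and each mouse left out.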

Additional observations from a re-analysis of the deposited data

Results flagged for a closer look

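In the first Ccr3 assay, day 14 tumor-bearing replicate 15 stood at a log2 relative quantity of -5.72, apart from the other 7 tumor-bearing mice of that day. Its gap to the nearest of them was 0.560 of the range of the group, above Dixon's 95% critical value of 0.526 for 8 samples. The second Ccr3 assay placed the same mouse at -4.55, within its group. Chance alone marks about 1 in 20 groups in this way, and 14 sets of day 14 values were examined. The Prg2 value of day 14 tumor-bearing replicate 21, -4.46, fell just short of the same limit, with a gap of 0.518 of the range.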

How the results depend on the processing

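No paired analysis by replicate number was possible because no number is shared between groups. Mice that share a day and a panel were compared by their differences and signs, with no test. The signs were counted for the members only, so no share over all assays stands beside them. Of 282 member differences under other settings, 263 kept their direction and side of the threshold and 19 changed sign, with a lowest adjusted p of 0.1075 (limma). Prg2 at day 7 turned to 3.70 when reactions without a Cq took the largest Cq of the table, to 0.61 when they took the largest Cq of the assay (an alternative chosen after seeing the data) and to 0.12 in panel-matched pairs. Ccl11 at day 14 turned to 0.0468 with panel as a fixed block, without panels D and G and in pairs, and to 0.0332 with Cq centred on each sample's median. Il5 at day 14 turned to -0.0109 with no panel block, -2.21 and -0.24 with missing reactions filled in the same 2 ways, and -0.55 without replicates 13 and 21 (also chosen after seeing the data), and at day 21 to -1.17 with a fixed block. Il5ra turned to 0.66 at day 14 with a fixed block, without panels D and G and in pairs, and to 0.11, 0.14 and 0.13 for the mean of days. Ccl24 at day 21 turned to 0.00667 with centred Cq. The cause was not tested. With 1 mouse left out, 691 of 716 differences were unchanged in this sense, 24 changed sign and 1 passed (the second Ccr3 assay, day 14, range -0.52 to -0.30). Ranges that crossed 0 were, at day 7, -0.16 to 0.18 and -0.23 to 0.0014 for the Ccr3 assays, -0.60 to 0.22 for Il5ra and -0.37 to 0.12 for Prg2; at day 14, -0.48 to 0.36 for Il5; at day 21, -0.21 to 0.19 for Ccl24, -0.14 to 0.19 and -0.0377 to 0.26 for the Ccr3 assays and -1.20 to 0.60 for Il5ra; and -0.58 to 0.0294 for Il5ra over the days. The number of assays past the threshold fell, at day 14, from 14 to 4 with missing reactions at the largest Cq of the table, 9 with Cq above 28 left missing, 3 with fully measured assays and 6 with day 14 alone; at day 21, from 7 to 0 (limma), 3 and 1 under the first 3 of these; and for the mean of days from 14 to 4 with the fill and 6 with fully measured assays. With 1 mouse left out these counts were 8 to 15, 1 to 8 and 8 to 15. With Cq above 28 left missing, Prg2 stood at 0.08 at day 14, from 6 tumor-bearing and 2 healthy mice. At day 21 it stood at 1.76, from 3 tumor-bearing and 2 healthy mice. This cut takes out late reactions, so low values are missing from both estimates. Il5 and Il5ra gave no value under it. Late Cq and missing reactions limit Il5, Il5ra and Prg2; the 3 mice per group limit days 7 and 21.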
